A study of Homo sapiens with 2 samples.

Results

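The genes described here encode the protein subunits of the human mitochondrial ribosome. They were taken by name, as every protein-coding row of the count table whose symbol starts with MRPL or MRPS followed by a digit. The rule found 79 rows with 78 symbols among 19994 protein-coding rows and 61554 rows in all, since MRPS5 was listed under 2 gene identifiers. Of the 79, 49 carried an MRPL symbol (large subunit) and 30 an MRPS symbol (small subunit).

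The counts came from ribosome profiling, which sequences the RNA fragments that ribosomes shield from nuclease, so that a gene's count follows the ribosomes on its mRNA. Each of the 2 libraries came from 1 dish of 15 cm of HEK293T, a line from human embryonic kidney listed as wild type. Both dishes received the plasmid for TetRS (chPylRSIPYE), which also carries 12 U6-driven cassettes of CM15CGA, listed as the tRNA with the anticodon CGA, and both were given TetBu. Only the library labelled RiboW also had the plasmid pEGFP-mCherry-T2A-EGFP-151TCG, called the reporter below, and RiboWo lacked it. Expression lasted 30 h, and cells then stood for 1 min in medium with 0.1 mg/mL cycloheximide, which arrests cytosolic ribosomes. All differences below are between these 2 libraries. With 1 library per group they have no replicate check, so no p-value is given, and every interval is an exact one at 95% that covers counting error only.

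The mitochondrial ribosome makes the proteins encoded in mitochondrial DNA, which are core subunits of the respiratory chain and ATP synthase. Its own proteins are all encoded in the nucleus, made by cytosolic ribosomes and imported, and they join rRNAs transcribed inside the organelle. Some are homologues of bacterial ribosomal proteins, and others were added in the mitochondrial lineage and coat or replace parts of the shortened rRNA. The systematic names in RefSeq mark this origin with a first letter, u or b for proteins with bacterial homologues and m for mitochondria-specific ones, and the letter after it gives the subunit. Such a name was found for 76 of the 79 rows. By these names MRPS30 (mL65) and MRPS18A (mL66) belong to the large subunit in spite of their symbols. The letter m does not exclude a bacterial relative, since MRPS18A and MRPS18B (mS40), relatives of bacterial S18, carry it. The classes by origin below follow the letter only. MRPS36, which RefSeq lists as KGD4, has no ribosomal name and is known as part of the oxoglutarate dehydrogenase complex.

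The libraries held 2519301 counts in RiboW and 3151403 in RiboWo, most of them from noncoding RNA. Protein-coding rows took 346240 and 307768 counts, and these 2 totals are the reference for the ratios below. Markers of other cell types were sparse. Leukocyte markers had 5 counts in RiboW and 20 in RiboWo, with PTPRC and CD3E at 0 in both. Fibroblast markers had 40 and 64 counts, hepatocyte and serum markers had 1 and 28, and a list of neuronal genes known from HEK293 cultures had 165 and 106, all from NEFL, NEFM and INA, with STMN2 at 0. The part of these differences in the results below was not tested.

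Mitochondrial ribosomal proteins took nearly the same share of coding counts in both libraries. Their pooled count was 1565 in RiboW and 1362 in RiboWo, or 0.452% (0.430 to 0.475%) and 0.443% (0.419 to 0.467%) of coding counts. The log2 ratio of these shares, with over without the reporter, was 0.03 (-0.08 to 0.14). Footprints of a whole dish cannot tell fewer cells making a protein from less of its mRNA or translation per cell. A count was present in either library for 77 members and in both for 72. Depth per gene was low, with a median summed count of 28, against 6 over all coding rows. A summed count of at least 20 was reached by 54 of 79 members (68.4%) and by 31.5% of coding rows, and only MRPL21, MRPS2 and MRPL18 reached 100. The 25 members under 20 counts had 110 and 106 counts together.

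Levels differed widely between members. They were compared as RPKM, the deposited values scaled to listed gene length and library size. That length includes untranslated and alternative exons, so a gene with a long listed model has a low RPKM for the same footprints. MRPL41, a mitochondria-specific protein of the large subunit with a listed length of only 582 bases, had the highest value, at 30.5 RPKM in RiboW and 26.1 in RiboWo. MRPL18, whose bacterial homologue sits in the central protuberance, had 17.2 and 19.8 RPKM. MRPS34, a mitochondria-specific protein of the small subunit, had 14.3 and 9.28 RPKM. These 3 genes led in the mean of both libraries, and the difference between libraries was small beside the distance to most other members.

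MRPL21 had 12.6 and 9.87 RPKM, and MRPS2, the homologue of a protein at the back of the bacterial small subunit, had 10.5 and 6.80. MRPL58, a peptidyl-tRNA hydrolase that frees stalled mitochondrial ribosomes and is also built into the large subunit, had 9.11 and 7.19. MRPL33 had 7.72 and 8.03, and MRPL39 had 10.2 and 3.92. MRPL12, the stalk protein that recruits translation factors and is present in several copies per ribosome, stood only 22nd among the members, at 2.76 RPKM and 5.02 RPKM. This level rests on 8 and 14 counts. Over the 54 members with at least 20 counts, the RPKM values of the libraries had a Spearman correlation of 0.77, and over the 6296 coding rows with that count it was 0.85. Genes of 1 library are not independent replicates, and both values share the listed lengths.

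**Figure D1:**
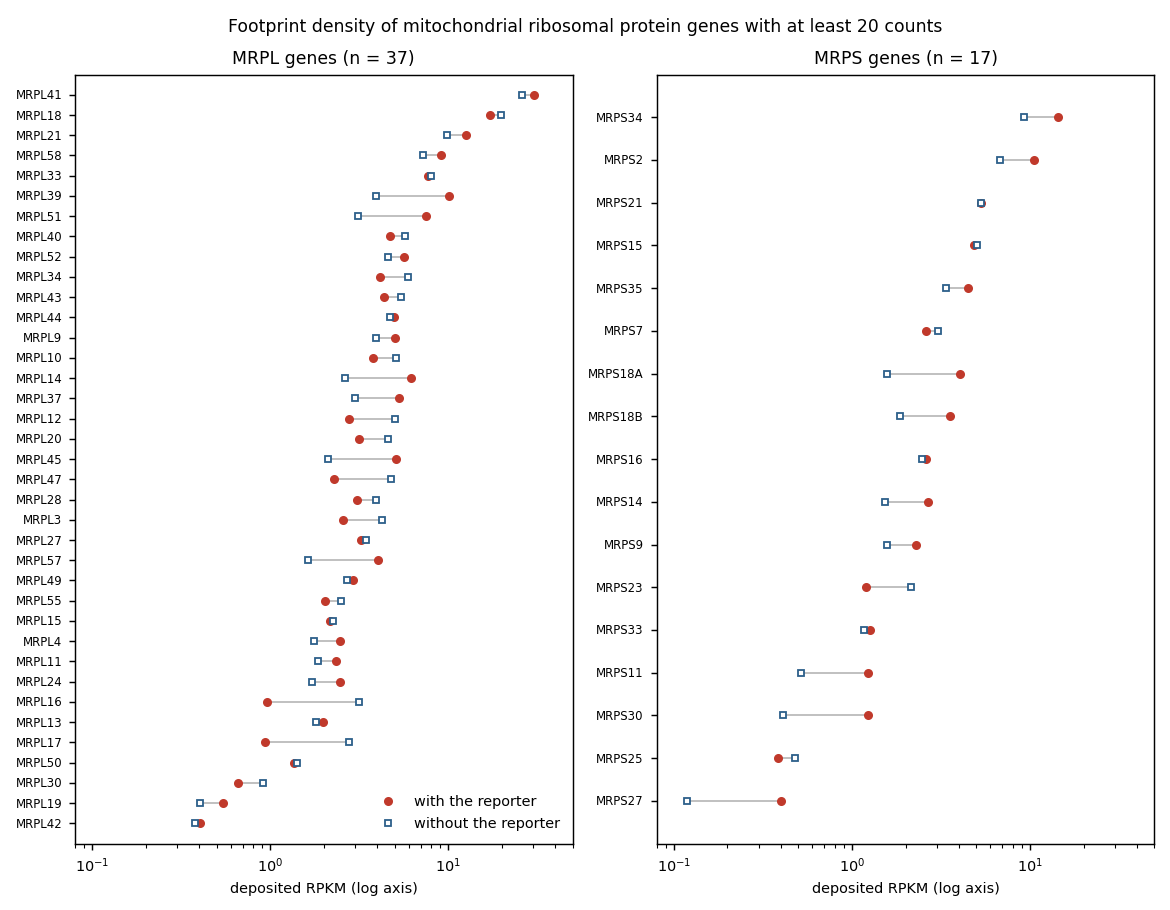
Deposited RPKM (log axis) of the 54 members with at least 20 counts, in order of their mean, with the large subunit symbols on the left and the small subunit symbols on the right. Filled circles are the library with the reporter and open squares the one without it, each 1 library. MRPL41 stands highest at 30.5 and 26.1, and MRPS27, with the longest listed model, has 0.400 and 0.119.

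At the low end, MRPS17 and MRPL53 had no count in either library, which allows up to 3 counts each. Both loci overlap other coding rows. MRPS17 overlaps NIPSNAP2, which had 10 and 17 counts, and MRPL53 overlaps CCDC142, with 8 and 7. MRPS24 had 0 and 1 counts and overlaps the readthrough row URGCP-MRPS24, at 0 in both. The MRPS5 rows, a homologue of a protein near the bacterial decoding site, overlap each other and had 8 and 4 counts in one row and 0 and 2 in the other. MRPL46 had 3 counts in RiboW and 0 in RiboWo, and MRPS22, with a listed length of 16385 bases, had 10 and 4. Most of these loci are shared between rows of the table or listed at great length. The part of this in the low counts was not tested, and the handling of shared reads is not stated here.

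The members also share features of their start sites. RefSeq promoter windows on GRCh38.p14, 250 bases before to 50 bases after each start site, were matched by symbol for 69 of the 78 symbols, with 85 windows. The motif AAGATGGC, the core of sites for the factor YY1, was searched on both strands and found in 23 of these windows (27.1%), against 3.53% of 22199 windows of coding genes and 2.89% of all 35116. The motif CCGGAAG, typical of ETS factors, was in 33 (38.8%), against 12.8% of windows of coding genes and 10.3% of all. GCATGCGC, a part of the NRF1 site, was in 6 (7.06%), against 3.74% and 3.05%, and TATAAA in 3 (3.53%), against 9.47% and 11.5%. CCAAT was in 28 (32.9%), against 34.7% and 34.6%. A match describes letters and is no evidence that a factor binds.

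Of the 23 windows with AAGATGGC, 17 had it on the strand that reads like the RNA. In 16 it lay after the start site, where its letters include an ATG. Stretches of 30 bases around the match are shown for 8 of these 16, as examples from genes of both subunits chosen after their positions were seen. They are written 5′ to 3′ on the strand that reads like the RNA, with the match in capitals.
MRPS27 (chr5:72320206-72320235, minus strand): tggtacgctccAAGATGGCtgcctccatag
MRPS30 (chr5:44808949-44808978, plus strand): aatcgcgggcaAAGATGGCggcggccaggt
MRPS18A (chr6:43687764-43687793, minus strand): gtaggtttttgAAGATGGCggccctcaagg
MRPS18B (chr6:30617852-30617881, plus strand): gggcgtacgtcAAGATGGCggcgtctgtat
MRPL45 (chr17:38297170-38297199, plus strand): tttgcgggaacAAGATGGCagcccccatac
MRPL51 (chr12:6493223-6493252, minus strand): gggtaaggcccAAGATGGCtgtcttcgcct
MRPL20 (chr1:1407260-1407289, minus strand): ccgacccgggcAAGATGGCagcggcgctgc
MRPS7 (chr17:75261887-75261916, plus strand): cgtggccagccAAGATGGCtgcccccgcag
Over all 16 the first base of the match lay between 7 (MRPL38) and 36 (MRPL22), counted from 1 at the start site. In the 8 shown it was at 17 for MRPS27, 14 for MRPS30, 10 for MRPS18A, 24 for MRPS18B, 14 for MRPL45, 22 for MRPL51, 16 for MRPL20 and 20 for MRPS7. Of these 8, MRPS27, MRPS30, MRPL45 and MRPL51 are called higher with the reporter below, and MRPL20 and MRPS7 had ratios below 0. The 8 do not represent the ratios of all 16.

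Many members also lie head to head with another gene. A coding gene on the opposite strand that starts within 1000 bases upstream was found for 18 of the 79 members (22.8%), against 8.59% of all coding rows. MRPL46 and MRPS11, on chromosome 15, form such a pair with each other, 62 bases apart in the coordinates of the table, and had 3 against 0 and 20 against 8 counts. MRPS12, whose bacterial homologue lines the decoding centre, had 10 counts in RiboW and 5 in RiboWo, while its neighbour SARS2, the mitochondrial seryl-tRNA synthetase, had 3 and 8. MRPL49 starts 5 bases from FAU, a gene of the cytosolic small subunit, which had 56 and 24 counts.

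Of the subunits taken by symbol, the small one took a larger share of coding counts with the reporter, judged against counting error only. MRPS genes had 537 counts in RiboW and 409 in RiboWo, a log2 ratio of 0.22 (0.03 to 0.41). MRPL genes had 1028 and 953 counts, a ratio of -0.06 (-0.19 to 0.07). MRPL genes thus held 65.7% of the members' counts with the reporter (63.3 to 68.0%) and 70.0% without it (67.5 to 72.4%). The log2 difference, large minus small, was -0.28 (-0.51 to -0.05). With MRPS30 and MRPS18A counted as large by their systematic names and MRPS36 left out, it was -0.24 (-0.47 to -0.006). By symbol without MRPS36 it was -0.33 (-0.56 to -0.10). In the cytosolic ribosome the same difference was 0.03 (-0.02 to 0.08).

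The subunit difference did not hold in every choice of members. Without the 50 members whose locus overlaps another row, 22 of them MRPS genes, it turned to 0.13 (-0.26 to 0.52), with only 144 and 142 small subunit counts left. Its interval also reached 0 without MRPS2, at -0.23 (-0.47 to 0.02), without members that overlap a small RNA gene, at -0.17 (-0.42 to 0.08), and with the 5 subunits named otherwise added by structure, at -0.18 (-0.40 to 0.03).

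Member by member, most ratios lay within counting error of 0. Of the 54 members with at least 20 counts, 27 had a ratio above 0 and 27 below it, and for 44 the interval held 0. Their median was -0.00, against 0.02 over the 6296 coding rows, and the median was -0.04 for 37 MRPL and 0.42 for 17 MRPS genes. The SD of the ratios was 0.76, where counting error alone gives 0.49, and the 5856 coding rows with 20 to 179 counts and a count in both libraries had 0.80 and 0.49. Members therefore varied more than counting allows, about as much as other coding genes of like depth, and the pooled intervals do not cover this variation.

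**Figure D2:**
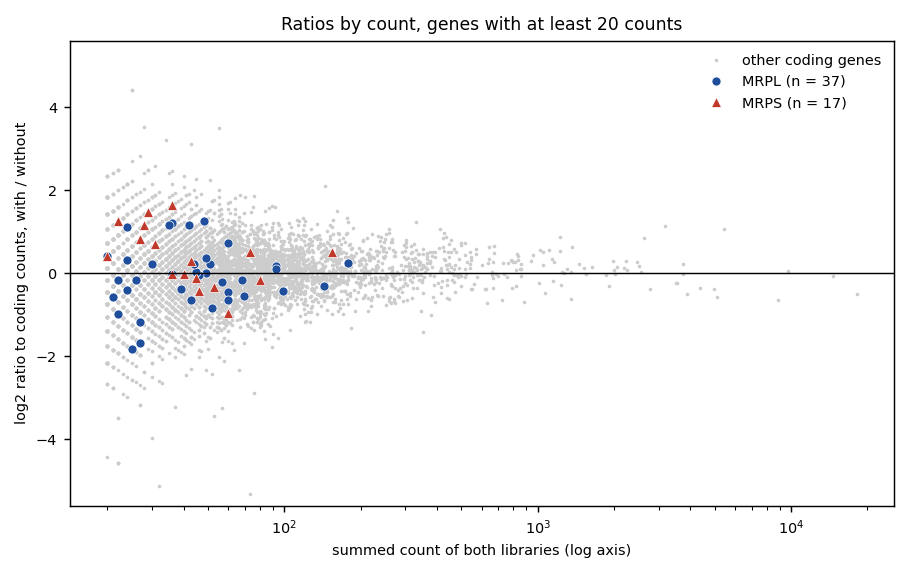
Log2 ratio to coding counts, with over without the reporter, against the summed count (log axis) for genes with at least 20 counts and a count in both libraries. Circles are 37 MRPL and triangles 17 MRPS genes, over other coding genes in grey; members lie between -1.83 and 1.64, within the spread of the others.

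A gene was called where it differed by 2-fold or more between libraries with an interval that left out 0. With the reporter 6 of the 54 members were called higher (11.1%), where 5.99% of all coding rows were, or 6.33% of those in the members' range of counts. Called lower were 2 of 54 (3.70%), where 7.27% of all coding rows were, or 7.77% of those in that range.

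The 6 higher members were MRPS27, MRPS30, MRPL39, MRPL57, MRPL51 and MRPL45, all mitochondria-specific by their systematic names. MRPS27, a small subunit protein with pentatricopeptide repeats, had 28 counts in RiboW and 8 in RiboWo, a log2 ratio of 1.64 (0.47 to 2.98). MRPS30, a large subunit protein by structure, had 22 and 7 counts, a ratio of 1.48 (0.20 to 2.95). MRPL39 had 35 and 13 counts (1.26, 0.30 to 2.30). These 3 had the highest ratios, yet each rests on at most 13 counts without the reporter.

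MRPL57 had 26 and 10 counts (1.21, 0.11 to 2.43), and MRPL51 had 30 and 12 (1.15, 0.14 to 2.25). MRPL45, which holds the ribosome at the inner membrane, had 25 and 10 counts (1.15, 0.04 to 2.37). MRPS18A had 16 and 6, a ratio of 1.25 whose interval held 0 (-0.18 to 2.89). MRPS2 had 95 and 59 counts, a ratio of 0.52 (0.03 to 1.01) under the 2-fold threshold.

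The 2 lower members were MRPL16 and MRPL17, both homologues of bacterial large subunit proteins. MRPL16, whose homologue lies near the peptidyl transferase centre, had 6 counts in RiboW and 19 in RiboWo, a log2 ratio of -1.83 (-3.45 to -0.45). MRPL17, at the exit side of the large subunit, had 7 and 20 counts, a ratio of -1.68 (-3.17 to -0.38). MRPL47, next to the tunnel exit, had 9 and 18 counts (-1.17, -2.51 to 0.06), and MRPL12 had 8 and 14 (-0.98, -2.44 to 0.38). MRPS23 was the only small subunit gene among the 5 lowest ratios, with 22 and 38 counts (-0.96, -1.79 to -0.16). The intervals of these genes are wide.

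MRPL21 had 102 counts in RiboW and 77 in RiboWo, a log2 ratio of 0.24 (-0.21 to 0.68). MRPL18 had 68 and 75 counts (-0.31, -0.81 to 0.18). Of the other members with the highest levels, MRPL41 had 51 and 42 counts (0.11, -0.51 to 0.73), MRPS34 had 45 and 28 (0.51, -0.20 to 1.25), and MRPL33 had 34 in each (-0.17, -0.90 to 0.56). MRPL58 had 29 and 22 counts (0.23, -0.62 to 1.10).

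MRPS36, the member that is no ribosomal protein by RefSeq, had 0 counts in RiboW and 13 in RiboWo. The interval of its log2 ratio has no lower end and an upper end of -1.78. Leaving it out brought the small subunit ratio to 0.27 (0.08 to 0.46).

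Grouped by origin, which was done after the ratios of single genes had been seen, the large subunit divided. Its 30 bacterial homologues had 575 counts in RiboW and 618 in RiboWo, a log2 ratio of -0.27 (-0.44 to -0.11). Its 21 mitochondria-specific proteins, MRPS30 and MRPS18A among them, had 491 and 348 counts, a ratio of 0.33 (0.13 to 0.53). The log2 difference between these classes was -0.60 (-0.86 to -0.34). With each of the 51 genes left out in turn it stayed between -0.71, without MRPL43, and -0.55, without MRPL39, and no interval reached 0. Without members that overlap another row it was -0.76 (-1.13 to -0.38). These variants reuse the values in which the division was seen, so they are no independent check of it. Their intervals cover counting error only. Among genes with at least 20 counts, ratios had an SD of 0.69 within the bacterial homologues and 0.67 within the mitochondria-specific genes.

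The classes still overlapped gene by gene. Of the bacterial homologues with at least 20 counts, 15 lay below the coding median and 7 above it, and 1 was equal to it. Of the mitochondria-specific genes, 10 lay above it and 6 below. MRPL14, a bacterial homologue, was at 1.11 (-0.23 to 2.62), while MRPL43 and MRPL40, both mitochondria-specific, were at -0.43 and -0.39. Median listed lengths were 2576 and 2233 bases, and 17 of 30 and 12 of 21 loci overlapped another row.

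In the small subunit the interval of this difference held 0. Its 15 bacterial homologues had 287 and 219 counts (0.22, -0.04 to 0.48), and its 10 mitochondria-specific genes had 208 and 160 (0.21, -0.10 to 0.52). The difference was 0.01 (-0.39 to 0.42), so these counts do not exclude differences within that interval in either direction. Among bacterial homologues alone the large subunit was below the small one by -0.49 (-0.80 to -0.18), and among mitochondria-specific proteins the difference was 0.12 (-0.25 to 0.49).

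Groups of the large subunit by place in the ribosome were small. The 4 proteins of the stalk and its base (MRPL1, MRPL10, MRPL11, MRPL12) had 59 counts in RiboW and 71 in RiboWo, a log2 ratio of -0.44 (-0.96 to 0.08). The 8 proteins of the exit tunnel and membrane contact had 117 and 97 counts (0.10, -0.30 to 0.50), with MRPL39 and MRPL45 called higher and MRPL17 lower. The 8 proteins of the central protuberance had 168 and 165 counts (-0.14, -0.46 to 0.18). None of these pools had an interval that excluded 0.

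The 3 relatives of bacterial S18, which occupy different places in the ribosome, had 35 and 24 counts together (0.37, -0.42 to 1.19). In the classes by origin MRPS18A and MRPS18B stood as mitochondria-specific by their names, in spite of this relation. With subunits by symbol, and without MRPS18A and MRPS30, the difference by origin in the large subunit was -0.54 (-0.81 to -0.27). MRPS18A had 16 and 6 counts, MRPS18B 18 and 9 (0.83, -0.40 to 2.17), and MRPS18C 1 and 9 (-3.34, -8.79 to -0.49). MRPS18C, the only one that RefSeq names as the homologue of S18 itself, was the only one whose interval left out 0, on 10 counts in all, and its difference from the others was not tested.

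A small RNA gene lies within the locus of 10 members. Among them are MRPS27, called higher above with 28 and 8 counts, and MRPS22, with 10 and 4. The locus of MRPS27 also overlaps PTCD2, at 7 and 10 counts. MRPL3 holds the snoRNA gene SNORA58, which had 1448 counts in RiboW and 974 in RiboWo, while MRPL3 itself had 20 and 32 (-0.85, -1.73 to 0.00), the other way round. MRPL20 had 25 and 35 counts (-0.66, -1.46 to 0.13), MRPL43 had 45 and 54, and MRPS35 had 25 and 18 (0.30, -0.63 to 1.26). MRPL42 had 19 and 17 counts, MRPL48 8 and 5, and MRPS31 3 and 11. MRPS14 had 20 and 11 counts (0.69, -0.44 to 1.90). Its locus overlaps CACYBP, at 172 and 79 counts. Small RNA genes within the loci other than SNORA58 had at most 2 counts in a library.

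For its subunits named otherwise and the proteins that work beside the mitochondrial ribosome, all 4 lists had a pooled log2 ratio whose interval held 0. Extremes of each list are given over its genes with at least 20 counts. The 5 subunits named otherwise took 0.0436% and 0.0400% of coding counts in RiboW and RiboWo, a log2 ratio of 0.13 (-0.23 to 0.48). Of these, DAP3, a GTP-binding protein of the small subunit, had 29 and 55 counts and was called lower at -1.09 (-1.80 to -0.42). GADD45GIP1, a large subunit protein, had 21 and 9 (1.05, -0.14 to 2.36). AURKAIP1, CHCHD1 and PTCD3 lay between 0.50 and 0.74.

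The 25 assembly factors had 402 and 383 counts (-0.10, -0.31 to 0.11), and of 12 with at least 20 counts none was called higher and 1 lower. That gene was TRUB2, a pseudouridine synthase, with 13 and 31 counts (-1.42), and the highest was MALSU1 at 0.51. The 15 genes listed as translation factors had 632 and 606 counts (-0.11, -0.27 to 0.05), with none of 10 called. SLIRP was the most counted of them, with 238 and 261 counts (-0.30, -0.56 to -0.04), and weighs heavily in this pool. The 10 genes ran from TACO1, an activator of COX1 translation, at -0.67 to LRPPRC, which stabilizes mitochondrial mRNAs, at 0.33. The 17 mitochondrial aminoacyl-tRNA synthetases had 395 and 368 counts (-0.07, -0.28 to 0.14). YARS2 was called lower among 10, with 11 and 35 counts (-1.84), and HARS2 was highest at 0.97. By the same rule 5.99% of all coding rows with at least 20 counts were called higher and 7.27% lower. Lists this small cannot show a departure from these shares.

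The respiratory chain and ATP synthase have subunits from both genomes, and the members lay between these lists. The 74 nuclear-encoded subunits of oxidative phosphorylation had 4194 and 3189 counts, a log2 ratio of 0.23 (0.16 to 0.29), and the 62 of them with at least 20 counts lay between NDUFB3 at -2.67 and NDUFB11 at 2.00. The members lay below them by -0.19 (-0.32 to -0.07). The 13 mitochondrially encoded proteins, the products of the mitochondrial ribosome, had 36084 and 40556 counts (-0.34, -0.36 to -0.32), and the members lay above them by 0.37 (0.26 to 0.48). Cycloheximide does not act on the mitochondrial ribosome. Whether the counts of these 13 genes are footprints of that ribosome was not tested. The ribosomal RNAs that the members bind had ratios to coding counts of -0.55 for MT-RNR1, in the small subunit, and -0.03 for MT-RNR2, in the large one. These 2 values depend on the denominator, since coding rows took 13.7% of all counts in RiboW and 9.77% in RiboWo. Taken to total counts, both ratios are higher by 0.49, so neither shows a fall or a steady level of the rRNA.

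Against the cytosolic ribosome the interval of the difference held 0. Its 46 large and 31 small subunit genes had ratios of 0.11 (0.08 to 0.15) and 0.08 (0.04 to 0.12), with RPL30 at -1.05 and RPL17 at 1.51, and RPS26 at -1.01 and RPS27 at 0.58, as the lowest and highest of each among genes with at least 20 counts. The difference, members minus cytosolic proteins, was -0.07 (-0.18 to 0.04). Many cytosolic genes have processed pseudogenes that can take their reads, so their counts are uncertain. The 79 rows of mitoribosomal pseudogenes had only 5 and 4 counts.

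**Figure D3:**
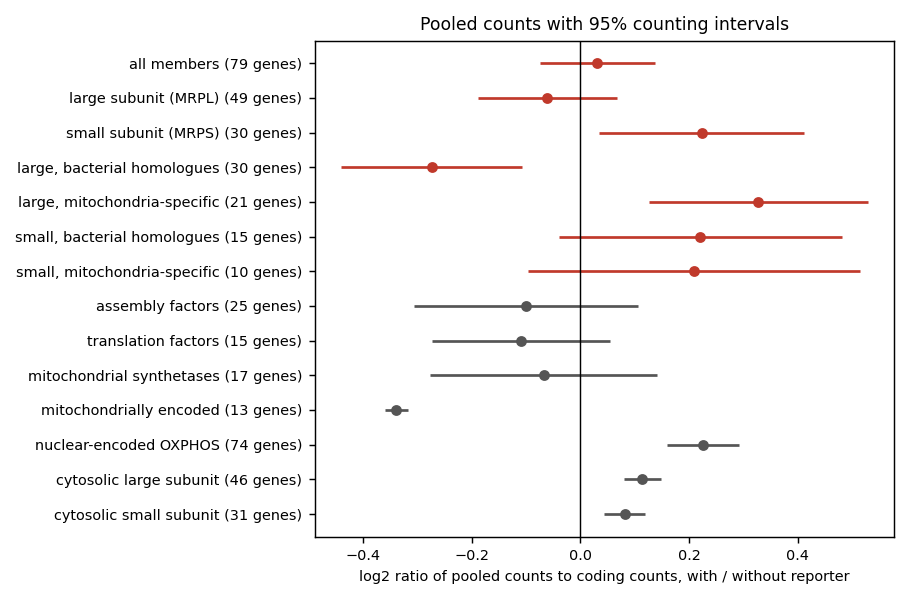
Log2 ratio of pooled counts to coding counts, with over without the reporter, with exact 95% counting intervals. Red points are the members and their subunits and classes, and grey points the companion lists; large subunit bacterial homologues lie at -0.27 and mitochondria-specific ones at 0.33, on opposite sides of 0.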

How the data were processed

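The 2 libraries of ribosome footprints were grouped by their titles as the labels' protocols explain. The deposited table gives whole-number counts per gene; TopHat2 2.0.12 and HTSeq 0.9.1 are listed without role, per the submitters' processing notes, with reads of 50 nt per the labels' protocols. Those notes list GRCh37 and hg19, although coordinates in the table match GRCh38 gene positions in RefSeq. Strand and multiple matches are not given in the sources used here. The deposited RPKM values equalled the count divided by listed length and by 1 size per library, 2873483 with and 2762965 without the reporter. These sizes are not the total counts of the libraries and run in the opposite order. Their ratio is that of the DESeq2 size factors, 1.02 with and 0.981 without the reporter.

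Ratios are shares of coding counts, so a gene and its pool have the same zero. Single genes took exact Clopper-Pearson intervals and differences between pools exact conditional odds ratios (scipy 1.17.1, numpy 2.4.6, pandas 2.3.3, Python 3.11.15). Alternatives included edgeR 4.0.16 TMM and DESeq2 1.42.0 size factors (R 4.3.3). The steps were tested on simulated counts drawn with counting error alone. These lack the further variation between genes seen here, so they do not show how the intervals or calls perform on such data. Reads copied by PCR are not independent molecules, so intervals may be too narrow.

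Members and lists were chosen with earlier results of these data known, and classes by origin and place after gene values were seen. Named were members with 100 counts or more, the 5 highest and 5 lowest ratios at 20 counts or more, the 8 highest and 5 lowest RPKM above 0, members at 0, members over a small RNA gene, MRPL12, MRPS12, MRPS18A, MRPS30, MRPS36, MRPL58, and the extremes of each companion list; others were named after their values were seen. RPKM replaced a planned density per codon, since protein sequences were not used here.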

Additional observations from a re-analysis of the deposited data

Results flagged for a closer look

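Rows that carry a member's name but encode no protein were outside the comparison, and a count of 0 would allow up to 3. MRPL20-AS1, an antisense RNA whose locus overlaps MRPL20, had 5 counts in RiboW and 10 in RiboWo, in the same direction as the 25 and 35 of MRPL20. Reads of the 2 genes cannot be told apart if strand was not used. The pseudogene MRPS31P5 had 4 counts in RiboW and 1 in RiboWo, while MRPS31 had 3 and 11. Together 86 such rows had 13 and 17 counts, and 9 of them had any.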

How the results depend on the processing

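Each group had 1 library, so no replicate could be left out. No paired analysis was possible because the groups hold 1 library each. Total counts raise every ratio by 0.49 and DESeq2 size factors by 0.11, which moves the coding median to 0.52 and 0.14. All members pooled were then at 0.52 and 0.14, the large subunit under total counts at 0.43 and the small one at 0.72. These scalings add 1 constant to every ratio, so they cannot change the order of the pools. Without members overlapping another row, the small subunit turned to -0.15 and large minus small to 0.13. The small subunit's interval also reached 0 without MRPS2, without members over a small RNA gene, without mitochondrially encoded genes in the denominator, and with the subunits named otherwise. Under total counts 14 members were higher and 0 lower, where 20% and 1.99% of coding rows were. At 3-fold 1 was higher (2.10% of coding rows), and at 100 counts 0 of 3 members were called either way (2.36% and 0.755%). At 10 counts 5 were lower (7.87%). The difference by origin in the large subunit stayed between -0.80 and -0.54 in its 5 alternatives, all chosen after seeing the data. Depth limits single genes, as 44 of 54 intervals held 0.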

Other observations

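Some members under 20 counts, named after their values were seen, had the widest differences among members with a count in both libraries. MRPS26, a small subunit protein, had 17 counts in RiboW and 2 in RiboWo (2.92, 0.84 to 6.08), and MRPS6, a bacterial homologue, had 11 and 1 (3.29, 0.51 to 8.72). MRPS18C, with 1 and 9, went the other way (-3.34, -8.79 to -0.49), as did MRPS31 (-2.04, -4.53 to -0.12).

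Ratios were also set against the promoter motifs, after both had been seen and with no test. For GCATGCGC, TATAAA and CCAAT the pooled intervals of members with and without the motif all held 0. The pooled ratios with and without were -0.03 and 0.05 for GCATGCGC, -0.26 and 0.08 for TATAAA, and 0.02 and 0.06 for CCAAT. Only 3 members had GCATGCGC and 2 had TATAAA at that depth. The motifs CCGGAAG and AAGATGGC are given in full because their pools lay apart. The 20 members with CCGGAAG and at least 20 counts had a median log2 ratio of -0.27 and a pooled ratio of -0.22 (-0.40 to -0.05). The 30 without it had 0.31 and 0.29 (0.12 to 0.45). Over all coding genes the medians were 0.05 with the motif (1342 genes) and 0.02 without it (3915 genes). The 13 members with AAGATGGC had a median of 0.17 and a pooled ratio of 0.27 (0.02 to 0.52), and the 37 without it -0.03 and -0.02 (-0.15 to 0.12), while the medians over all coding genes were 0.02 and 0.04.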
